A study of Mus musculus with 12 samples.

Results

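Interleukin-12 (IL-12) family cytokines are heterodimers assembled from a small set of shared subunits, and the 5 subunit genes Il12a, Il12b, Il23a, Il27 and Ebi3 were followed here in bone marrow-derived dendritic cells (BMDCs). The genes were picked by symbol, and all 5 of them, of 55335 genes quantified, were found in every library. RNA was sequenced from 12 cultures in 4 groups of 3 replicates. CreER mice, which carry a tamoxifen-inducible Cre at the ubiquitous Rosa26 locus and intact Ctcf, gave the WT group and, after stimulation with lipopolysaccharide (LPS) at 100 ng/ml for 3 h, the WTL group. CreER;CTCF fl/fl mice, in which 4-OH tamoxifen deletes Ctcf, gave the KO and KOL groups in the same way. All mice were adult C57BL/6 of both sexes, and bone marrow was cultured with GM-CSF for 6 days. The drug was added on the first day for the deletion, and CD11c+ cells were selected, per the study's methods. The sources used here leave unclear whether WT cultures also received it, so the deletion and the drug cannot be told apart.

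Each of these cytokines joins a four-helix subunit to a receptor-like partner. IL-12, made of the products of Il12a and Il12b, drives interferon-gamma production by T and NK cells. IL-23 pairs the product of Il23a with that of Il12b and maintains IL-17-producing cells, and IL-27 pairs the products of Il27 and Ebi3 and has both activating and restraining effects on T cells. The Ebi3 and Il12a products can also combine as IL-35. Dendritic cells sense LPS through Toll-like receptor 4 and are a main source of IL-12 and IL-23. CTCF is a DNA-binding protein that, with cohesin, sets the ends of chromatin loops. The files hold RNA levels only, so the balance described below is one of subunit RNAs and not of secreted protein.

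The members lie on 5 chromosomes. In GENCODE M21 annotation of mm10, Il12a occupies chr3:68690644-68698547 on the plus strand, Il12b chr11:44400063-44414033 on the plus strand, and Il23a chr10:128296139-128298752 on the minus strand. Il27 lies at chr7:126589010-126594941 on the minus strand, where it overlaps Apobr on the plus strand. Ebi3 lies at chr17:55952640-55957022 on the plus strand, where it overlaps the antisense gene Gm16712. The strand setting of the counting is not given in the sources used here, so reads within the overlaps cannot be assigned to one gene or the other with certainty, and the levels of Il27 and Ebi3 are uncertain to that extent.

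The promoters of members with a RefSeq entry are shown because every subunit responded to LPS. The table of RefSeq promoters, on GRCm38.p6, held windows for 3 members, Il12a with a pair of starts, Il12b and Ebi3. The 250 bases before the start are printed 5′ to 3′ on the plus strand, for Il12a at chr3:68690394-68690643 (the upstream start), for Il12b at chr11:44399813-44400062 and for Ebi3 at chr17:55952373-55952622. No annotated exon overlapped these windows. Capitals mark every match, on either strand, to the NF-kB half-site GGGAA, the C/EBP core TTGCAA, the TATA-like element TATANA, or AGNNGGC, a part of the CTCF core motif. No window held the IRF element GAAANNGAA or the AP-1 element TGANTCA.
Il12a: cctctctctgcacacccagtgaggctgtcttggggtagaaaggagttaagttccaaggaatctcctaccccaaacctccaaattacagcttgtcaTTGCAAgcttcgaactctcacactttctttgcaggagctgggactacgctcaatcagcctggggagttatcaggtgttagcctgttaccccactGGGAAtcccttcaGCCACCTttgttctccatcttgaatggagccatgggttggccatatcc
Il12b: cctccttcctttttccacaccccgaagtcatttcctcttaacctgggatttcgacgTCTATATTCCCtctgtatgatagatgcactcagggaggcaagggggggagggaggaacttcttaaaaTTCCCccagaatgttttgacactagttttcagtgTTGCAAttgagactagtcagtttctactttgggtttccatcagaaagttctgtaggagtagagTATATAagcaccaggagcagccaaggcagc
Ebi3: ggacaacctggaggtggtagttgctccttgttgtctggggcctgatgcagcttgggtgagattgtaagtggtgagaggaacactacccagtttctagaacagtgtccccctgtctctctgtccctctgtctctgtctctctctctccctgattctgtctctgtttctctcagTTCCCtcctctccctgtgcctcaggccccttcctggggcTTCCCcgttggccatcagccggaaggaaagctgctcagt

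Il12a and Il12b each carried TTGCAA, beginning 155 and 93 bases before the start, and this core was present in 5.34% of all 32851 promoter windows in the table. Il12b had a TATA-like match 30 bases before its start, and a second one 194 bases before it that abutted, without overlap, a GGGAA match on the minus strand. TATANA was found in 22.6% of all windows. GGGAA occurred once for Il12a, at 61 bases before the start, and in 2 places each for Il12b and Ebi3, but also in 56.2% of all windows. AGNNGGC matched Il12a alone, at 48 bases, and 52.5% of all windows. GAAANNGAA and TGANTCA were present in 7.13% and 6.75% of windows. The second Il12a start held none of these motifs. The motifs were chosen with the sequences in view, and a match is a description of letters and not a site of binding.

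Libraries held 12769773 to 16586334 expected counts, the read counts that RSEM estimates per gene. Ribosomal RNA genes took 5.22% of WTL replicate 2 and 0.394% to 1.26% of the other libraries, and the spread between replicates (biological coefficient of variation) was 13.7% in WTL and 14.4% in KOL against 4.91% in WT and 2.62% in KO. Ctcf, the targeted gene, had normalized counts (counts adjusted for library size) of 1051, 987 and 975 in WT, 886, 817 and 745 in WTL, 570, 562 and 516 in KO, and 564, 530 and 526 in KOL. Each KO and KOL library lay below each library of its control, with means at 54.7% and 66.2% of it in counts of the whole gene rather than of its deleted part. Markers of the labelled dendritic cells were all present. Their 9 genes summed to 9300 to 10000 TPM (transcripts relative to the library's total, corrected for length) in WT, 9365 to 13290 in WTL, 6788 to 7113 in KO and 10030 to 15060 in KOL. Cd74, H2-Ab1 and H2-Eb1 made up most of it, with means of 5132, 1743 and 2163 TPM in WT and 4252, 923 and 914 in KO. The dendritic cell markers did not shift alike, since the Itgax mean alone was higher in KO (606 against 366 TPM in WT). The 7 neutrophil markers summed to 371 to 396 TPM in WT and 191 to 224 in KO, with 5 of the 7 below 1 TPM in every KO library, and to 345 to 440 in WTL and 286 to 332 in KOL. Macrophage and monocyte markers, 7 in all, reached 999 to 1073 TPM in WT, 606 to 732 in WTL, 1197 to 1240 in KO and 619 to 753 in KOL. The 3 plasmacytoid markers, mostly Bst2, summed to 161 to 201 TPM in the unstimulated groups and 514 to 688 with LPS. B, T and NK cell, mast cell and fibroblast lists stayed at or below 4.65 TPM in every library. No call of a member changed when WTL replicate 2 was left out. What these shifts contribute to the results below was not tested, and in bulk RNA fewer producing cells and less RNA per cell cannot be told apart.

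Changes below are log2 fold changes from edgeR's quasi-likelihood test on counts, with p-values adjusted over the 14008 genes tested. A gene was called at an adjusted p under 0.05 and a fold past the study's cutoff for that comparison. The study's cutoff for LPS in WT was also used for LPS in KO. The shared subunit Il12b, which enters both IL-12 and IL-23, showed a separate level in each of the 4 groups. Its TPM was 6.62, 6.35 and 6.91 in the WT libraries and 439, 341 and 389 in the WTL libraries. In KO it was 0.88, 1.81 and 1.42 TPM, and in KOL 163, 215 and 166 TPM. No pair of groups overlapped, and the order was KO, WT, KOL and WTL from low to high. LPS raised Il12b 84.4-fold in WT (log2 fold change 6.40, SE 0.16, adjusted p = 4.4e-13) and 183-fold in KO (7.51, SE 0.19, adjusted p = 2.3e-13). Without LPS, the KO level was 4.55-fold below WT (-2.19, SE 0.21, adjusted p = 1.1e-06), from 113 ± 6.10 to 24.9 ± 8.29 normalized counts (SD, n = 3). With LPS the gap was smaller, 2.10-fold below WTL (-1.07, SE 0.13, adjusted p = 7.6e-06), from 9562 ± 832 to 4546 ± 787. The LPS response in KO exceeded that in WT by 1.11 on the log2 scale (SE 0.25, adjusted p = 0.0073).

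Il12a, which encodes the IL-12-specific subunit, was close to absent before LPS. The expected counts were 4, 1 and 2 in WT and 1, 3 and 0 in KO, at or near the floor of 3 counts, so no fold is given between these groups and a difference was not detectable at this depth. With LPS its TPM reached 15.0, 13.3 and 13.4 in WTL and 6.24, 6.97 and 6.07 in KOL. The groups did not overlap, and every KOL library held less than every WTL library. KOL was 2.15-fold below WTL (log2 fold change -1.11, SE 0.18, adjusted p = 0.00014), with 92.3 ± 3.12 against 199 ± 9.56 normalized counts (SD, n = 3). Adjusted for library size, the summed counts rose 97.5-fold with LPS in WT (exact 95% Poisson interval 47.0 to 244, for counting error only) and 74.6-fold in KO (28.8 to 276). The KO value rests on 4 counts, 3 of them in replicate 2, and without that library the fitted log2 change went from 6.09 to 7.31.

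Il23a, which encodes the IL-23-specific subunit, was low in KO before LPS and reached a level in KOL that overlapped WTL. Its TPM was 13.2, 9.64 and 8.95 in WT and 0.97, 0.95 and 1.32 in KO, with no overlap. The stimulated libraries overlapped, at 32.7, 29.2 and 37.6 TPM for WTL and 34.6, 24.3 and 30.9 TPM for KOL. Without LPS the KO level was 9.11-fold below WT (log2 fold change -3.19, SE 0.22, adjusted p = 4.1e-08), from 128 ± 23.2 to 13.9 ± 2.40 normalized counts (SD, n = 3). With LPS the difference did not pass the test, at -0.13 (95% interval -0.39 to 0.14, adjusted p = 0.43), with 571 ± 50.9 in WTL and 522 ± 82.0 in KOL. LPS raised Il23a 4.47-fold in WT (2.16, SE 0.14, adjusted p = 5.7e-09) and 37.3-fold in KO (5.22, SE 0.20, adjusted p = 1.4e-11). The response in KO exceeded that in WT by 3.06 on the log2 scale (SE 0.26, adjusted p = 5.1e-06). A retained-intron transcript, Il23a-202, is 1724 bases long against 1360 for the coding Il23a-201. The mean transcript length in the files implied a share for it of 6.3%, 12.2% and 6.8% in WT, 4.5%, 4.7% and 3.9% in WTL, and 2.0%, 3.5% and 2.8% in KOL. In KO, where each library held 13 to 18 counts, the implied share ran from 0.0% to 16.2%. The length-based share was low in each group and was not tested between groups.

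**Figure D1:**
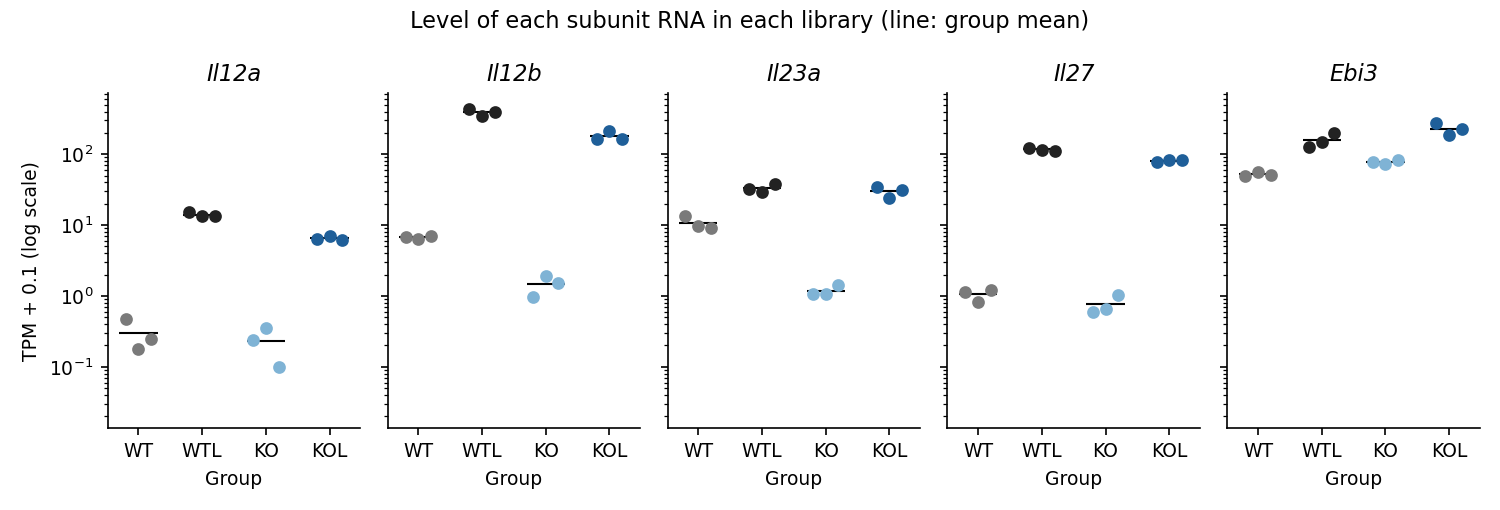
Level of each subunit RNA in every library. The y axis is TPM + 0.1 on a log scale, each point is 1 library, the line is the mean of 3 libraries, and the x axis gives the group. Il12b was separate in all 4 groups, Il23a fell to about 1 TPM in KO and overlapped between WTL and KOL, and Ebi3 was higher in KO than in WT.

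Il27, the four-helix subunit of IL-27, was low before stimulation in both genotypes. Its TPM was 1.03, 0.71 and 1.12 in WT and 0.50, 0.55 and 0.94 in KO, and the groups overlapped. LPS brought it to 123, 116 and 111 TPM in WTL and to 78.3, 81.6 and 83.0 TPM in KOL, with no overlap between these groups. Its rise was the steepest fitted among the 5 in WT, 174-fold (log2 fold change 7.45, SE 0.14, adjusted p = 2.3e-14), and it was 164-fold in KO (7.36, SE 0.15, adjusted p = 4.0e-14). KOL was below WTL by 0.50 on the log2 scale (SE 0.08, adjusted p = 0.00019), with 983 ± 57.2 against 1390 ± 96.8 normalized counts (SD, n = 3), which is 1.41-fold and short of the 1.5-fold cutoff for this comparison. The unstimulated difference did not pass (-0.41, 95% interval -1.12 to 0.30, adjusted p = 0.44). Apobr, which encodes an apolipoprotein B receptor and overlaps Il27, had 4026 ± 311 normalized counts in WTL and 2394 ± 473 in KOL.

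Ebi3, the receptor-like partner in IL-27, was the 1 member with more RNA in CTCF-deficient than in WT cells. Its TPM was 48.8, 55.6 and 50.9 in WT and 77.2, 73.3 and 82.6 in KO, with no overlap. The WTL libraries had 127, 149 and 201 TPM and the KOL libraries 272, 190 and 224 TPM, where the highest WTL library lay above the lowest KOL library. KO exceeded WT 1.60-fold (log2 fold change 0.68, SE 0.15, adjusted p = 0.0022), with 803 ± 52.6 against 501 ± 41.0 normalized counts (SD, n = 3). KOL exceeded WTL by 0.55 (SE 0.15, adjusted p = 0.0068), which is 1.46-fold and under the cutoff, and leaving out single libraries gave 0.39 to 0.73. It passed the cutoff without WTL replicate 3 (0.73) or without KOL replicate 2 (0.66) and was lowest without WTL replicate 1 (0.39). LPS raised Ebi3 4.41-fold in WT (2.14, SE 0.15, adjusted p = 2.2e-08) and 4.02-fold in KO (2.01, SE 0.15, adjusted p = 3.0e-08). The antisense Gm16712 had 99.2 ± 2.77, 633 ± 111, 148 ± 10.3 and 794 ± 127 normalized counts in WT, WTL, KO and KOL. Expected counts of the pair were fractional. In WT replicate 1 they were 498.61 for Ebi3 and 108.39 for Gm16712, which add to a whole number. In WTL replicate 2 they were 2030.51 and 567.18, which add to a whole number only with the 346.31 of the neighbour Yju2. RSEM thus divided some reads between Ebi3 and Gm16712, and in some libraries with Yju2 too, so their levels are not separate measurements.

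**Figure D2:**
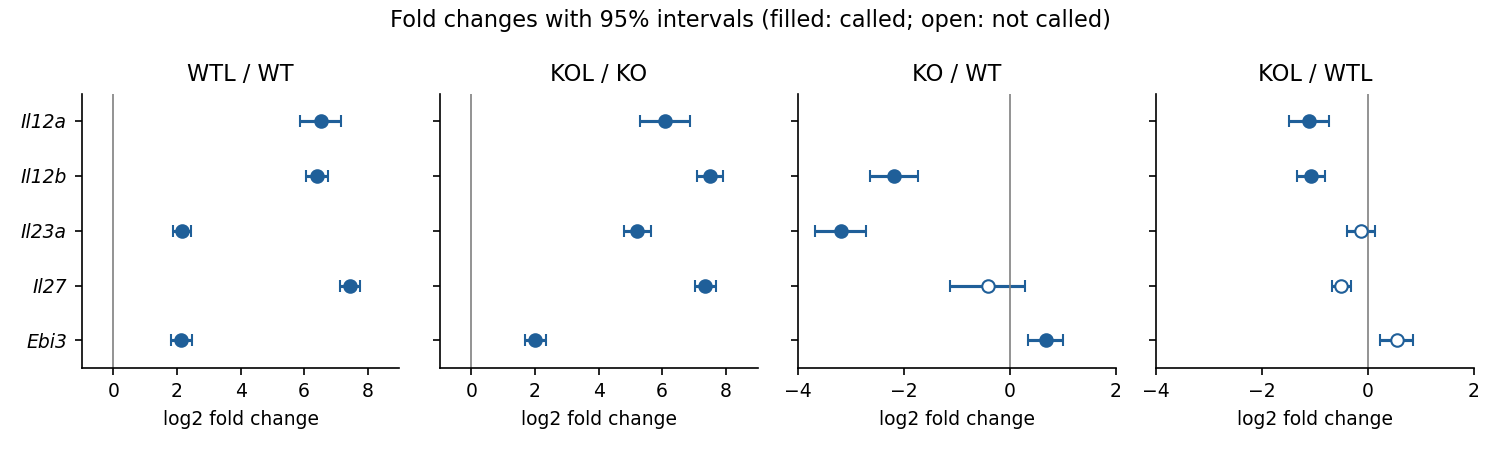
Log2 fold changes of the 5 members in 4 comparisons. Points are edgeR estimates, bars are 95% intervals, filled points were called (adjusted p under 0.05 and past the fold cutoff) and open points were not. Il12a is left out of KO / WT, where it was at or near the floor. All 5 members lay far to the right with LPS, while the deletion moved them in both directions.

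Counted together, 5 of 5 members rose past 2-fold with LPS in WT and 5 of 5 in KO, where 12.6% and 15.1% of the 14008 genes tested were called higher, and none fell, against 9.99% and 13.0% of all genes. In KO against WT, at a cutoff of 1.3-fold, 1 member (Ebi3) was higher and 2 (Il12b and Il23a) were lower, with 17.3% and 17.2% of all genes called in these directions. In KOL against WTL, 0 were higher and 2 (Il12a and Il12b) were lower, with 12.5% of all genes called in each direction. Without the fold cutoff Ebi3 would count as higher and Il27 as lower. The interaction of LPS and deletion was called for Il12b and Il23a, where 8.70% of genes were called higher and 8.75% lower. Both had a larger response in KO on the log2 scale, from a lower level before LPS. After LPS, Il12b was still lower in KOL (4546 normalized counts) than in WTL (9562). For Il12a, Il27 and Ebi3 the interaction was -0.44 (95% interval -2.51 to 1.64), -0.09 (-0.91 to 0.73) and -0.13 (-0.58 to 0.32), none of which passed. The median log2 fold change of the members was 6.40 for LPS in WT, 6.09 for LPS in KO and -0.50 in KOL against WTL, and none is given for KO against WT, where it would be the value of Il12a near the floor. That of all genes was between -0.04 and -0.01 in these comparisons. These comparisons share libraries, WT and WTL among them, and so are not independent of each other. Levels in TPM carry an offset against the normalized counts, since the median of all genes on the log2(TPM + 0.1) scale was -0.52 for LPS in WT, -0.45 for LPS in KO and -0.12 in KO against WT. The direction of each called member was the same on either scale.

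Which subunit is in excess was asked within each library as a ratio of TPM, with 0.1 added to both values. For IL-12, Il12b exceeded Il12a in each library. The WTL libraries had Il12b to Il12a ratios of 29.1, 25.6 and 28.8, and the KOL libraries 25.7, 30.4 and 27.0, with geometric means of 27.8 and 27.6. The log2 difference was -0.01 (exact permutation p = 1.0, two-sided), beside falls of 2.10-fold for Il12b and 2.15-fold for Il12a. Before LPS the ratio was 14.3, 35.8 and 28.0 in WT and 4.08, 5.46 and 15.2 in KO, values that rest on Il12a at or near the floor. Over both LPS states the CTCF difference was -0.91 (exact stratified permutation, adjusted p = 0.14) and the LPS difference over both genotypes was 1.09 (adjusted p = 0.060).

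For IL-23 the subunit in excess changed with LPS. In WT, Il23a exceeded Il12b in each library, with Il12b to Il23a ratios of 0.507, 0.662 and 0.775. In WTL the ratios were 13.4, 11.6 and 10.3, so that Il12b was in excess. In KO the ratios of 0.916, 1.82 and 1.07 lay around parity, and in KOL they were 4.70, 8.83 and 5.38. LPS moved the ratio up by 3.26 on the log2 scale over both genotypes (exact stratified permutation p = 0.005, the smallest it can give, adjusted p = 0.010). The deletion moved it up by 0.93 without LPS and down by 0.95 with LPS, without overlap in either case (exact permutation p = 0.1 each, the smallest that 3 against 3 can give), and the mean over both states was -0.01 (adjusted p = 0.98). The scarcer IL-23 subunit had a mean of 6.63 ± 0.28 TPM in WT, 33.1 ± 4.18 in WTL, 1.05 ± 0.24 in KO and 29.9 ± 5.25 in KOL (SD, n = 3).

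For IL-27, Ebi3 exceeded Il27 in each library, and LPS brought the pair closer to parity. The ratio of Ebi3 to Il27 was 43.3, 68.8 and 41.8 in WT and 129, 113 and 79.5 in KO. The WTL libraries gave 1.03, 1.28 and 1.82, and the KOL libraries 3.47, 2.32 and 2.70. LPS lowered the ratio 37.4-fold over both genotypes (log2 difference -5.23, exact stratified permutation p = 0.005, adjusted p = 0.010). The deletion raised it 2.09-fold over both LPS states (1.07, exact stratified permutation p = 0.005, adjusted p = 0.010), by 1.07 without LPS and 1.06 with LPS, and neither state showed an overlap between genotypes. Before LPS, Il27 had only 9, 7 and 11 expected counts in the WT libraries and 5, 5 and 9 in the KO libraries. The size of the LPS fall therefore depends on the value added to TPM. With a pseudocount of 1 the log2 difference was -4.34 in WT and -4.10 in KO, against -5.22 and -5.23. Over the alternatives that kept all libraries, the deletion difference ran from 0.81 to 1.13 without LPS and from 1.05 to 1.06 with LPS. The scarcer subunit, Il27, had 117 ± 6.32 TPM in WTL and 81.0 ± 2.45 in KOL (SD, n = 3).

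**Figure D3:**
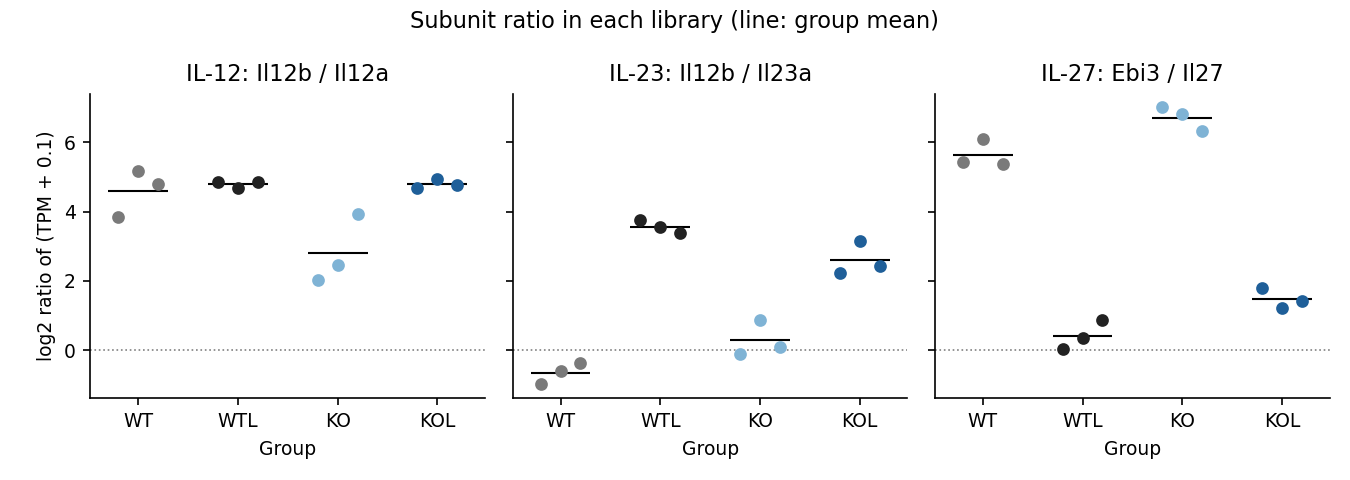
Subunit ratio in each library as log2 of (TPM + 0.1) over (TPM + 0.1), for IL-12, IL-23 and IL-27. Points are libraries, lines are means of 3, and the dotted line at 0 marks equal levels. The IL-12 ratio had means of 27.8 in WTL and 27.6 in KOL on the linear scale, the IL-23 ratio crossed the line with LPS in WT, and the IL-27 ratio was about 1 log2 unit higher in KO and KOL than in their controls.

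Summed over the 5 genes, subunit RNA amounted to 70.1 ± 2.20 TPM in WT, 712 ± 55.6 in WTL, 80.9 ± 4.82 in KO and 527 ± 23.6 in KOL (SD, n = 3). Ebi3 made up 73.8% of the sum in WT and 96.0% in KO, the remainder of the KO sum being 1.70% Il12b, 1.33% Il23a, 0.811% Il27 and 0.167% Il12a. After LPS Il12b became the main component in WTL, with 54.7 ± 4.28% against 22.3 ± 4.79% for Ebi3. In KOL the mean share of Ebi3, 43.2 ± 6.25%, was above that of Il12b, 34.5 ± 6.29%, but Il12b exceeded Ebi3 in KOL replicate 2 (215 against 190 TPM), and the difference in order was not tested.

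**Figure D4:**
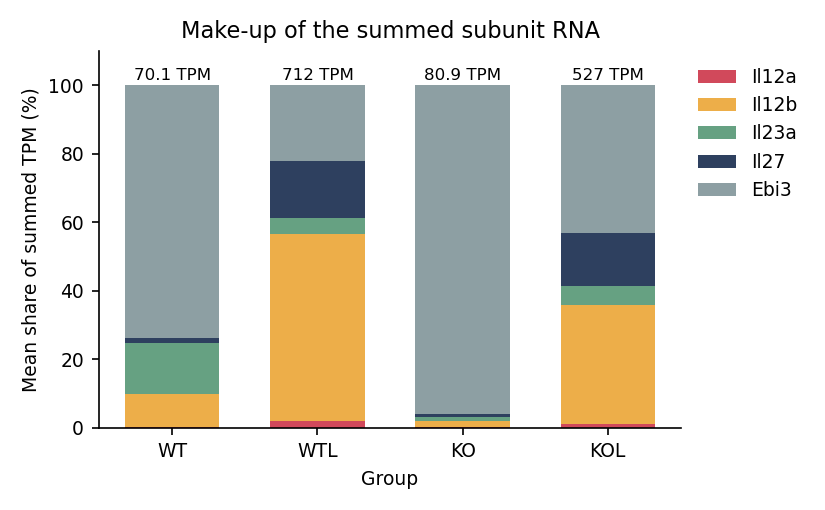
Share of each subunit in the summed TPM of the 5 genes, as the mean of 3 libraries per group in percent, with the summed TPM above each bar. Ebi3 filled 96.0% of the KO bar and Il12b 54.7% of the WTL bar.

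The genes that act with these cytokines were followed in lists drawn from general knowledge of the pathway. Counts in each list are to be read against the share of all genes called, which was 12.5% in each direction in KOL against WTL, 17.3% higher and 17.2% lower in KO against WT, and 12.6% higher with LPS in WT. Of the receptor chains, 4 of 5 were tested, and 1 was higher and 1 lower in KOL against WTL (list median -0.06). In KOL against WTL, Il12rb2, the second chain of the IL-12 receptor, was higher (log2 fold change 0.69, SE 0.15, adjusted p = 0.0018), as it was in KO against WT (0.75, SE 0.15, adjusted p = 0.00076). Il23r, which encodes the specific chain of the IL-23 receptor, was lower in KOL (-0.71, SE 0.24, adjusted p = 0.024), with means of 38.5 against 63.3 normalized counts. Of 6 receptor kinases and STATs, 0 were called in KOL against WTL (list median -0.05; 12.5% of all genes in each direction), 3 were lower in KO against WT (17.2% of all genes) and 3 rose with LPS in WT (12.6% of all genes).

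Of 10 transcription factors known to act at the subunit genes, 2 were lower and 1 was higher in KOL against WTL, near the 12.5% of all genes called in each direction, with a list median of -0.16. Irf8, which binds with partner factors at the Il12b promoter, rose with LPS from 1575 ± 28.2 to 4408 ± 729 normalized counts in WT and from 1423 ± 19.5 to 2070 ± 230 in KO (SD, n = 3). Its level in KOL was below WTL by 1.09 on the log2 scale (SE 0.11, adjusted p = 1.5e-06), and its LPS response in KO fell short of that in WT by 0.94 (interaction -0.94, SE 0.15, adjusted p = 0.00075). Irf1, an interferon-inducible activator of Il12a, was lower both without LPS (-1.32, SE 0.08, adjusted p = 1.1e-08) and with it (-0.92, SE 0.08, adjusted p = 3.2e-07). Batf3, needed for one class of dendritic cells, was higher in KOL (0.74, SE 0.17, adjusted p = 0.0027).

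Of 10 genes of LPS sensing, 5 were lower and 1 higher in KO against WT, where 17.2% and 17.3% of all genes were called and the list median was -0.34. In KOL against WTL 2 of them were lower and 0 higher, with 12.5% of all genes called in each direction and a list median of -0.39. The adaptors Tirap (-0.99, SE 0.17, adjusted p = 0.00025) and Myd88 (-0.77, SE 0.06, adjusted p = 1.3e-07) were the ones lower with LPS. Of 8 known brakes on these cytokine genes, 3 were lower and 1 higher in KOL against WTL, beside 12.5% of all genes in each direction, with a list median of -0.38. Il10, an inhibitory cytokine, was lower (-1.22, SE 0.16, adjusted p = 3.0e-05), at 72.6 ± 5.65 against 170 ± 7.85 normalized counts (SD, n = 3), and so was Zc3h12a, an RNase that degrades cytokine transcripts (-0.76, SE 0.09, adjusted p = 1.0e-05). Nfil3, a repressor of Il12b, was higher (1.08, SE 0.12, adjusted p = 4.2e-06), and its LPS response differed between genotypes by 1.45 (SE 0.17, adjusted p = 5.8e-05). Of 9 related four-helix cytokines and soluble partners, 6 were tested. Of these, 1 was lower in KOL against WTL (12.5% of all genes, list median 0.15) and 3 were lower in KO against WT (17.2% of all genes, list median -1.17). Il6 was lower with LPS, at 9024 ± 1390 against 17730 ± 3020 normalized counts (-0.97, SE 0.14, adjusted p = 7.7e-05), and also without LPS (-2.54, SE 0.30, adjusted p = 7.6e-06).

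**Figure D5:**
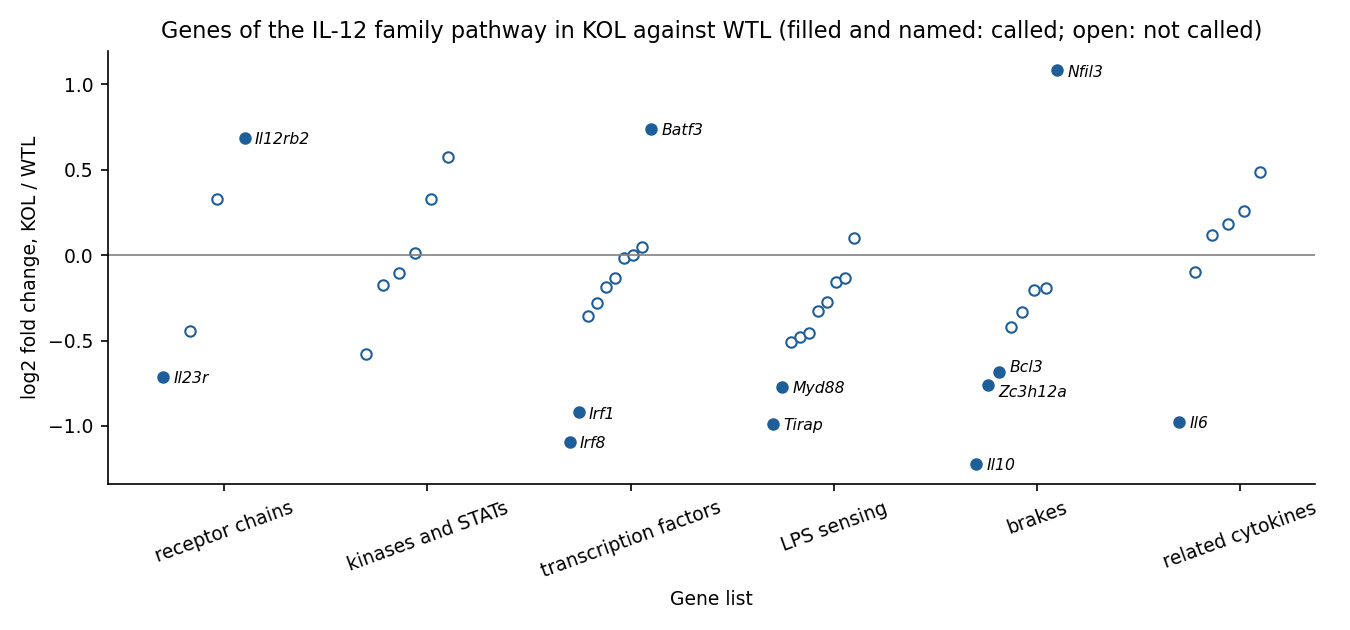
Log2 fold change in KOL against WTL of each tested gene in 6 lists of genes that act with the IL-12 family. Filled points with names were called, open points were not, and genes within a list are ordered by value. Irf8, Irf1, Tirap, Il10 and Il6 lay near or below -0.9, and Nfil3 lay above 1.

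The 2 nearest tested genes on each side of every member, 20 in all, gave the following counts. With LPS, 9 of 20 rose in WT and 7 in KO, beside 12.6% and 15.1% of all genes, and 0 fell in either. In KO against WT, 1 was higher and 4 were lower (17.3% and 17.2% of all genes), and in KOL against WTL 1 was higher and 3 were lower (12.5% of all genes each). The 1 higher in KO against WT was Gm16712, between which and Ebi3 reads were divided. Yju2, among those that rose with LPS in WT, also shared reads with that pair in some libraries. The 4 and 3 lower neighbours were near those shares. None of the 4 neighbours of Il12b, Ttc1, Pwwp2a, Ublcp1 and Rnf145, was called in any of the 4 comparisons, and the nearest of them was 40.5 kb away. Next to Il23a, Stat2, a mediator of interferon signals 3.3 kb away, was lower in KO than in WT (-1.11, SE 0.07, adjusted p = 1.9e-08) and rose with LPS. Beside Il12a, Schip1 was higher in KOL than in WTL (0.72, SE 0.14, adjusted p = 0.00097), opposite to Il12a itself. The other called neighbours of Il12a were lower in KOL, Gm17641 at -1.41 (SE 0.41, adjusted p = 0.012) and 1110032F04Rik at -0.81 (SE 0.15, adjusted p = 0.00058). Apobr, which overlaps Il27, was lower in KOL (-0.75, SE 0.11, adjusted p = 8.2e-05).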

How the data were processed

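RNA from 12 BMDC cultures was sequenced, per the methods with a stranded poly(A) kit and after CD11c selection, and per the labels after depletion of ribosomal RNA. Adapters were trimmed by the authors using Trim Galore, STAR 2.5.1 (per the submitters' processing notes) aligned to mm10, and RSEM quantified genes. For each gene the authors deposited an expected count, which RSEM estimates and which can be fractional, and its TPM, which is scaled per library and keeps no depth. The transcript and effective lengths that the authors deposited were used for the Il23a isoforms. Gene positions were taken from GENCODE M21, which matched 54587 identifiers with their version.

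Expected counts were rounded and normalized by TMM in edgeR 4.0.16 (R 4.3.3), and filterByExpr left 14008 genes. The quasi-likelihood test used one fit of the 12 libraries without covariates, with Benjamini-Hochberg adjustment over all genes tested and a threshold of 0.05. On simulated counts it recovered 79 of 100 changes of 1 log2 unit between KO and WT. The simulation gave each gene 1 spread in all groups, so it cannot show the effect of groups that differ in spread. Called genes also had to pass a fold cutoff, taken from the study, of 2 (LPS in WT), 1.3 (KO against WT) or 1.5 (KOL against WTL). The cutoff of 2 was extended here to LPS in KO, and no cutoff applied to the interaction. A normalized count is the count over the effective library size, times its mean. Subunit ratios were computed per library as log2((TPM + 0.1)/(TPM + 0.1)) and tested two-sided by exact permutation, 3 against 3 (smallest p 0.1) or within strata (400 arrangements, smallest p 0.005), adjusted over 6 tests. Alternatives were DESeq2 1.42.0, its size factors, other filters, limma 3.58.1 on log2 TPM, the 6 libraries compared alone, a replicate block and leaving out each library. Replicates are called biological triplicates in the series' description, without saying whether they came from separate animals.

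The members and lists were chosen with earlier results of these data known. Genes were named by rule: all members and Ctcf, up to 3 called genes per list with the largest change in KOL against WTL, the 2 nearest tested genes on each side, and the 3 genes most correlated with each member over the 12 libraries.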

Additional observations from a re-analysis of the deposited data

Results flagged for a closer look

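The LPS responses of a pair of members differed between genotypes in the edgeR test of the interaction. Il12b responded more in KO than in WT by 1.113 on the log2 scale (adjusted p = 0.0073), with all 3 KO libraries below all 3 WT libraries before LPS and all 3 KOL libraries below all 3 WTL libraries after it. Il23a responded more in KO by 3.059 (adjusted p = 5.1e-06), with no overlap between KO and WT and an overlap between KOL and WTL.

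The IL-23 subunit ratio Il12b to Il23a moved in opposite directions with the deletion in the unstimulated and the stimulated libraries, higher in all 3 KO than in all 3 WT libraries and lower in all 3 KOL than in all 3 WTL libraries. The log2 difference of KOL and WTL minus that of KO and WT was -1.877, and this difference itself was not tested.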

How the results depend on the processing

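No direction of a called result reversed under any alternative run. With at least 10 counts required in every library, Il12a and Il27 were not among the genes tested, so that 3 members were called higher with LPS in WT and 3 in KO, and 1 lower in KOL against WTL. On log2(TPM + 0.1), limma called 1 member lower in KOL against WTL, Il12a being lost (-1.10, adjusted p = 0.080). Without a fold cutoff 1 member, Ebi3, was called higher in KOL against WTL, and leaving out single libraries gave 0 to 1. On log2(TPM + 1), limma called 1 member with a larger LPS response in KO (Il23a; Il12b gave 0.60, adjusted p = 0.11) and 1 with a smaller one (Il12a, -0.92, adjusted p = 0.0050); the cause was not tested. With a pseudocount of 1 the IL-12 ratio passed for CTCF (-0.86, adjusted p = 0.018) and for LPS (2.793, adjusted p = 0.0075), and without WT replicate 2 it passed for LPS (1.229, adjusted p = 0.015), the range over libraries left out being 0.896 to 1.37. The IL-12 ratio before LPS rests on 7 counts of Il12a in WT and 4 in KO.

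Same-numbered libraries did not deviate together (correlations from -0.286 to 0.112, against -0.269 to 0.326 for libraries of different number). Not every library correlated best with its own number. With 3 libraries per group, these correlations cannot show whether the numbers mark shared animals or batches, so the pairing is unknown. The replicate block left the counts of called members as they were (Il12b in KOL against WTL -1.09, adjusted p = 4e-05). With same-numbered libraries paired (replicate block), sign flips over 6 pairs cannot go below p = 0.031, and the ratio differences for IL-23 with LPS (3.26), IL-27 with CTCF (1.067) and IL-27 with LPS (-5.227) each had an exact adjusted p = 0.062, each pair in the same direction.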

Other observations

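The genes whose profile over the 12 libraries was most like that of a member are given as a description, by Pearson's r of log2(normalized count + 1), with the 4 groups shared by all points. For Il12b these were Isg20, an interferon-induced exonuclease (r = 0.999), Dusp16 and Tgtp2 (0.997 each). Isg20 had 38.4 normalized counts in WT, 1122 in WTL, 11.8 in KO and 620 in KOL. For Il12a they were Gm16181 (0.995), Mycl and Whamm (0.99 each), and for Il23a the chemokine gene Cxcl2 and Fam107b (0.993 each) and Nckap1 (0.99). Cxcl2 had 4472 normalized counts in WT and 734 in KO, and 25210 in WTL and 17480 in KOL. Il27 was closest to Ccnd2, Ifi206 and Ifi213 (0.997 each). Ebi3 was closest to Psmb8, an immunoproteasome subunit (0.997), Fscn1 and Sqstm1 (0.996 each). Fscn1, an actin-bundling protein of mature dendritic cells, had 2521 normalized counts in WT, 4973 in KO, 18360 in WTL and 36800 in KOL.

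Among the members, r was highest for Il12b with Il27 (0.979) and lowest for Il23a with Ebi3 (0.693).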
